A study of Mus musculus with 122 samples.

Results

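The regions described here are 1120 stretches of mouse chromatin at which C/EBPβ was bound, that were open in control alveolar macrophages, and that had no peak of open chromatin once Cebpb was deleted. They were found by merging the peaks of 5 ATAC sequencing lists (overlap of at least 1 bp), which gave 129652 regions in all. Of these, 67034 had a peak in both control lists, and 15846 of those also overlapped a merged ChIP region with a C/EBPβ peak in both ChIP lists. The 1120 regions are the ones among these 15846 with a peak in none of the 3 Cebpb knockout lists. They are called bound, lost regions below. They were chosen by the presence of peaks, so their loss of a peak is the rule and not a result, and the values of the ATAC and ChIP peaks are given as a description, with no test.

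ATAC sequencing cuts and tags DNA where chromatin is accessible. The 5 ATAC libraries came from adult alveolar macrophages taken by bronchoalveolar lavage and grown in RPMI with 20 ng/ml CSF2 for 7 days, after which 1000 units/ml of mouse IFNα was added. The controls carried MxCre alone (strain Tg(Mx1-cre)1Cgn/J on C57BL/6, n = 2), and the knockouts carried MxCre with Cebpb flox/flox (strain Cebpbtm1.1Elgaz/J, crossed to the same MxCre strain, n = 3). All 5 therefore carried MxCre, an interferon-inducible Cre, and all received IFNα, and the controls had no floxed allele. Binding was measured by ChIPmentation with the C/EBPβ antibody C-19 in lavage macrophages of wild-type C57BL/6 mice (n = 2), which were neither cultured nor deleted.

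RNA was measured by 3′ polyA sequencing of sorted cells, in other mice than the chromatin. The comparison described first is that of adult lavage macrophages of Cebpb -/- mice (strain C/EBPb tm1Pfj, mixed background, n = 3) with Cebpb +/+ (n = 3). Its labels (RNA-for-ATACseq) tie it to ATAC samples of uncultured cells, which were not analysed here. It differs from the ATAC cultures described above in allele, strain and culture. Cebpb -/- CD11b low adult macrophages (n = 4) were compared with Cebpb +/+ (n = 4), and Cebpb -/- premature alveolar macrophages of embryonic day 18 (E18) from whole lung (n = 4) with Cebpb +/+ (n = 3), all of the same strain. CD11c +/Cre Cebpb flox/flox adults (n = 4) were set against CD11c +/Cre (Tg(Itgax-cre,-EGFP)4097Ach/J, C57BL/6, n = 3). LyzM Cre/Cre Cebpb flox/flox adults (n = 2) were set against Cebpb flox/flox mice with no Cre (C57BL/6, n = 2). In mixed marrow chimeras at 10 weeks, CD45.2 CD11c +/Cre Cebpb flox/flox macrophages (n = 3) were compared with CD45.1 wild-type macrophages (B6.SJL-Ptprca-Pepcb/BoyJ, n = 4) from whole lung of lethally irradiated CD45.1/2 recipients. Adult lavage macrophages of Lip Lip/Lip mice (strain C/EBPtm1.2Acle, mixed background, n = 4) were compared with Lip +/+ (n = 4). LIP is the name of a short form of C/EBPβ, and the labels do not state what the allele encodes. Both CD11c and LyzM promoters are active in other myeloid cells besides alveolar macrophages.

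C/EBPβ is a leucine zipper transcription factor that binds DNA as a dimer, often beside the macrophage factor PU.1, and takes part in the differentiation of myeloid cells. Alveolar macrophages live in the air spaces of the lung, where they take up and break down surfactant under the direction of GM-CSF (CSF2) and of the lipid-sensing receptor PPARγ. Open regions away from gene starts often hold enhancers, and a peak lost in a mutant means that the caller no longer found enough tagged DNA there.

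In 23 of the 1120 regions the lost peak overlapped a listed promoter window (250 bases before to 50 after a gene start in RefSeq, GRCm38.p6), so the sequence of those regions can be shown. The windows below are chosen because the linked gene fell (Mcemp1, Ear6), rose (Ctsz) or had a C/EBP match in the lost region (Akap7, and a start inside Cd9). The Mcemp1 window lies at chr8:3665512-3665811 (plus strand), that of Ear6 at chr14:51853518-51853817 (plus), that of Ctsz at chr2:174438990-174439289 (minus), that of Akap7 at chr10:25297030-25297329 (minus) and the one inside Cd9 at chr6:125493183-125493482 (plus). Capitals mark matches to the C/EBP letters TTGCNNAA, the C/EBP-ATF letters TTGCATCA or the AP-1 letters TGANTCA on either strand, and each sequence runs 5′ to 3′ on the strand given. The last window is that of a predicted gene that starts inside Cd9, and it is not the start of Cd9.
Mcemp1: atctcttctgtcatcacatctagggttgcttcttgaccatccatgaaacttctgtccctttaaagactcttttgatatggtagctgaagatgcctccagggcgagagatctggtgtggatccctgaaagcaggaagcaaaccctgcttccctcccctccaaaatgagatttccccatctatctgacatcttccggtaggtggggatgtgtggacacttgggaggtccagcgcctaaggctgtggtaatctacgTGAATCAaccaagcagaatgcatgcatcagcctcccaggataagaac
Ear6: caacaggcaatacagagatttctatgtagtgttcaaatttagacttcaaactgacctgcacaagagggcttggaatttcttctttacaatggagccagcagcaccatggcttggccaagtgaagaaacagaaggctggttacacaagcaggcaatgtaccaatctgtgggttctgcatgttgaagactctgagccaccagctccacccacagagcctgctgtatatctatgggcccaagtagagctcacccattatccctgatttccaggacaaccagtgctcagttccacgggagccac
Ctsz: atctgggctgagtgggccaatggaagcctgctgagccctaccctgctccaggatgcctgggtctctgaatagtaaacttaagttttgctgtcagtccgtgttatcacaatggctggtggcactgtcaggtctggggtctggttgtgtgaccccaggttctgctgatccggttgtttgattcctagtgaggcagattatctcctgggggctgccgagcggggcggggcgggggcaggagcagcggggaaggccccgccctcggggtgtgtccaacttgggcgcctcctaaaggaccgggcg
Akap7: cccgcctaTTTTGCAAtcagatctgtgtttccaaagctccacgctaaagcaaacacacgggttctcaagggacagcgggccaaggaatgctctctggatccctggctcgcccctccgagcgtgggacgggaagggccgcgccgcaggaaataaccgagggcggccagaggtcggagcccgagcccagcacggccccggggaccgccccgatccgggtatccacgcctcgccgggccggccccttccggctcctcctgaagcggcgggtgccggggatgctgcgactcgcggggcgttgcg
Window inside Cd9: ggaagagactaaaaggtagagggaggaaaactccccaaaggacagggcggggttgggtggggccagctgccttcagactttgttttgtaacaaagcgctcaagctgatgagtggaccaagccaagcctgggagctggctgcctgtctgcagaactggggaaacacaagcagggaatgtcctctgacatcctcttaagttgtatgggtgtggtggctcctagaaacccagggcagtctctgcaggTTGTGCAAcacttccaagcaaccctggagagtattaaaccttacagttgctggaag
The Akap7 window holds a C/EBP match from base 9, and the window inside Cd9 one from base 245, counted from the 5′ end. The Mcemp1 window holds an AP-1 match from base 254, and the windows of Ear6 and Ctsz hold none of the marked letters.

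Across all 27 windows on the 23 lost promoter regions, 9 held the C/EBP letters (33.3%, 95% Wilson interval 18.6 to 52.2%). The share was 447 of 3089 (14.5%) in windows on bound regions open in all 5 lists, 17 of 101 (16.8%) in lost regions with no ChIP peak, and 3547 of 32851 (10.8%) in all windows. The 9 windows belong to fewer places, since 3 of them are overlapping starts of 1 gene and 2 are overlapping starts of Tcp11. All 27 windows belong to 23 genes. The interval counts overlapping windows as separate, so it is too narrow, and the shares were not tested against each other. AP-1 letters stood in 2 of 27 windows (7.41%), against 5.60% of windows on bound, open regions and 11.9% on lost regions with no ChIP peak. The C/EBP-ATF letters, the interferon response element ISRE and RUNX letters (TGTGGTT) stood in 1, 1 and 2 of the 27 windows, STAT letters (TTCNNNGAA) in 2, and PU.1 letters (GAGGAAGT), the DR1 core (GTCANAGGT), the E-box (CACGTG) and the C/EBP palindrome (TTGCGCAA, a special case of the C/EBP letters) in none. A match is a run of letters and not a site, and the regions away from listed promoters were not searched.

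The label of the knockouts was checked first at Cebpb itself (ENSMUSG00000056501, chromosome 2, 167688915 to 167690432). Both control lists held a peak on the gene, and none of the 3 knockout lists did. Its fold enrichments over the local background were 3.43 and 2.74 in the authors' peak lists. These lay below the 10th percentiles of bound, lost regions (3.59 and 3.55), so the absence of so weak a peak is a weak check of the label. The RNA given next comes from other mice with another allele and does not check the cultures. In RNA, Cebpb was 422, 529 and 507 CPM (a count relative to the TMM-adjusted size of its library) in the +/+ libraries and 9.61, 13.4 and 31.6 CPM in the -/- libraries. The groups stood apart, and the log2 fold change was −4.73 (SE 0.43, adjusted p 0.000107, edgeR). Here and below, SE is the size of the log2 fold change divided by the square root of the F statistic of the edgeR test. Of 10 markers of alveolar macrophages, 7 and 8 had a promoter peak in the control lists and 4, 6 and 6 in the knockout lists. The defining markers of T cells, B cells and epithelium that have a listed promoter had a peak in 0 of the 5 lists. The same held for those of endothelium and stroma, erythroid cells, and mast cells and basophils. Of the 3 neutrophil markers S100a8 had a peak in all 5 lists, and Ly6g and Cxcr2 had one in none. Of the 3 dendritic cell markers Flt3 had one in all 5, and Zbtb46 and Xcr1 had one in none.

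The ATAC lists held 81880 and 92432 peaks in controls and 101952, 90597 and 88282 in knockouts, and the ChIP lists 27105 and 22558. Control replicate 1 had the shortest ATAC list, and knockout replicates 2 and 3 had fewer peaks than control replicate 2. Control replicate 1 also lacked more peaks: 11.8% of the bound regions with a peak in control replicate 2 had none in it, against 1.70% the other way. Absence from 1 knockout list was found for 10.8%, 14% and 14.6% of the bound regions of control replicate 1. RNA libraries had 642269 to 12652229 counts, at which 3 counts stand for 0.224 to 5.47 CPM, and the Cebpb -/- libraries of the adult comparison had 3805474 to 5362070.

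Bound, lost regions were 7.07% of the 15846 bound regions that were open in both controls. The background was of the same size: 7.4% of all 67034 regions open in both controls were lost, and 7.56% of the 45570 with no ChIP peak (3443 regions). Of the bound regions, 12983 had a peak in all 3 knockout lists, 1099 in 2 and 644 in 1. In the other direction, 5627 regions had a peak in all 3 knockout lists and in neither control, of which 77 were bound in both ChIP lists.

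Most bound, lost regions had weak peaks in the controls. Among bound regions whose lower control −log10 q was 3 to 5, 24.1% (146 of 606, 95% Wilson interval 20.9 to 27.7%) were lost, and at 5 to 10 the share was 17.7% (558 of 3145, 16.4 to 19.1%). It was 5.77% (342 of 5927) at 10 to 20 and 1.12% (67 of 5980) at 20 to 50, and none of 145 was lost at 50 or more, which allows a share of up to 2.58%. At equal strength the shares with no ChIP peak were 16.3%, 10.3%, 3.91% and 0.850%, each below that of bound regions. These shares use the values that chose the regions, so the difference is a description and was not tested. Under 3 the shares were 16.3% (7 of 43) and 17.6% (75 of 425), in that order. The intervals given cover counting error over regions only, as the lists come from 2 and 3 libraries. The shares differed little with the height of the ChIP peak: over 4 bins of about equal size, from the lowest to the highest of the lower ChIP fold, 7.00, 6.76, 7.28 and 7.23% of bound regions were lost.

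**Figure D1:**
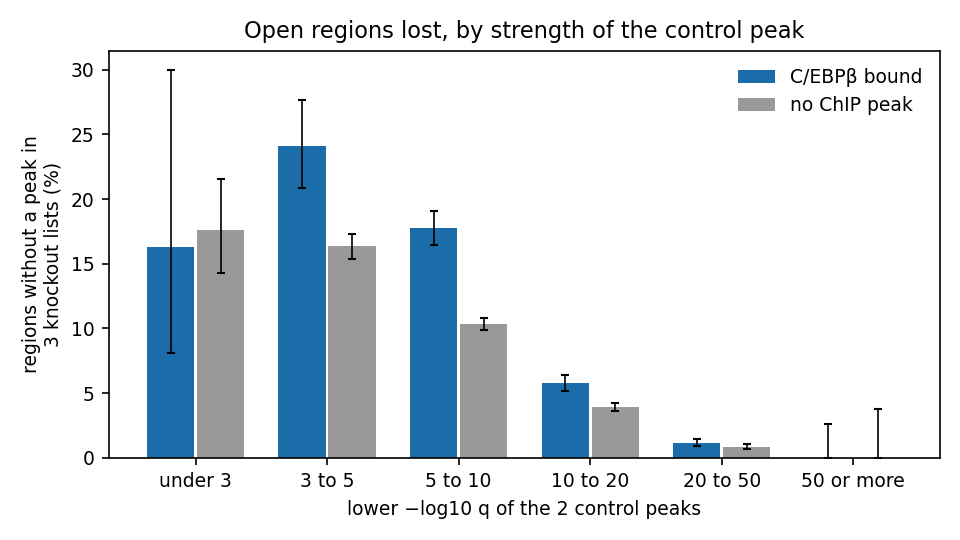
Share of regions open in both control lists that had no peak in any of the 3 knockout lists (y axis, percent), by the lower −log10 q of the 2 control peaks (x axis), for C/EBPβ-bound regions and regions with no ChIP peak; bars start at 0 and error bars are 95% Wilson intervals. Loss is most frequent at weak peaks, 24.1% of bound regions at 3 to 5, and falls to 1.12% at 20 to 50.

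The rule has a threshold at the presence of a peak. Just inside it, the lowest lower −log10 q of a bound, lost region was 2.37, with 7 regions under 3 and 153 under 5. Just outside it lay the 644 bound regions with 1 knockout peak, whose −log10 q had a lowest value of 1.86 and a median of 5.48, with 36 under 3. A further 1169 bound regions had a peak in 1 control and in no knockout, 153 of them in control replicate 1 and 1016 in control replicate 2, and 397 lost regions had a ChIP peak in 1 list only.

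In width, lower control fold and share at promoters, the bound, lost regions stood closer to lost regions with no ChIP peak than to bound regions open in all 5 lists. In lower control fold they were also close to bound regions with a peak in 1 or 2 knockout lists (medians 4.86 and 4.80), and their median −log10 q of 8.34 was nearer to those (8.87 and 9.20) than to that of lost regions with no ChIP peak (6.25). Their median width was 359 bp, against 331 bp for lost regions with no ChIP peak and 698 bp for bound regions open in all 5 lists. The lower of their 2 control fold enrichments had a median of 4.81, against 4.95 and 7.2. Their median distance to a listed gene start was 18 kb, against 24.9 kb and 12.7 kb. The ChIP fold enrichments of bound, lost regions (medians 12.5 and 12.2) were close to those of bound, open regions (12.5 and 11.5). The summits of the 2 assays lay within 100 bp of each other at 61.3% against 50.4% of them. In bound regions with a peak in 1 or 2 knockout lists (median widths 408 and 443 bp) the shares were 54.0 and 54.4%. The difference in width between these classes was not taken into account. Promoter windows were overlapped by 2.05% of bound, lost regions, 2.47% of the other lost regions and 17.6% of bound, open regions. Seen by place, 0.955% (23 of 2408) of bound promoter regions were lost, 8.41% (625 of 7429) of those elsewhere in a gene and 7.85% (472 of 6009) of those between genes.

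**Figure D2:**
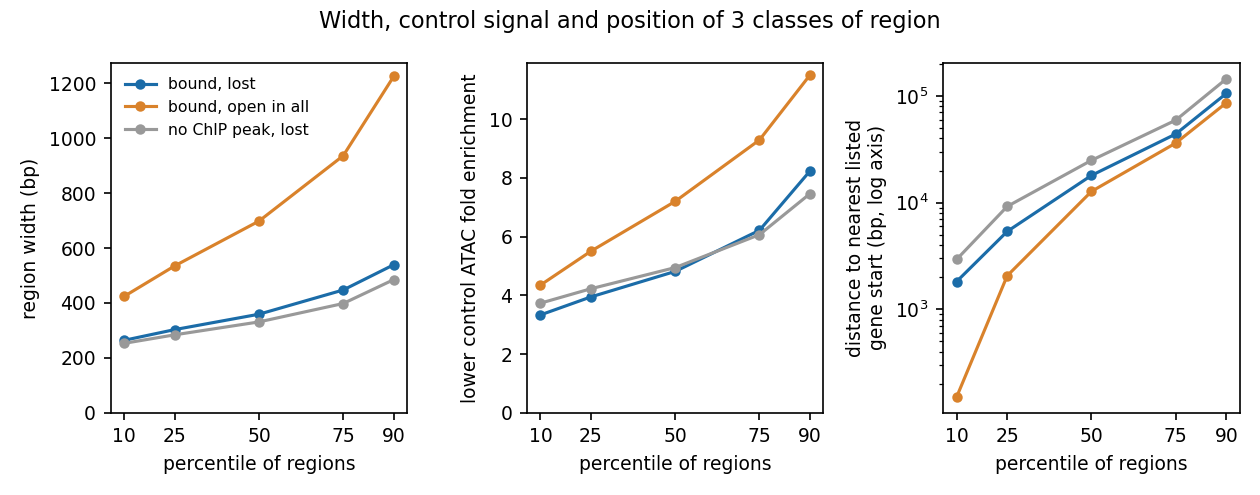
Width (bp), lower control ATAC fold enrichment, and distance to the nearest listed gene start (bp, log axis) at the 10th to 90th percentile (x axis) of bound, lost regions, of bound regions open in all 5 lists and of lost regions with no ChIP peak. The 2 classes of lost region run close together in width and signal, with medians of 359 and 331 bp, below the bound, open regions at 698 bp.

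The regions were scattered over 20 chromosomes, with 85 each on chromosomes 2 and 6 and 27 on X. Another bound, lost region lay within 50 kb for 254 of them (22.7%) and within 10 kb for 98. The edge of a knockout peak lay within 1 kb for 432 and within 200 bp for 102, so part of them sat beside chromatin that still had a peak. The strongest by control fold enrichment lay in Zfp953, a zinc finger gene (chr13:67343228-67343809, 17.2 and 17.4), and 3584 bp from a predicted gene (chr11:28343451-28343972, 15.7 and 17.1). The region 10258 bp from Pdk4, a kinase that shuts off pyruvate dehydrogenase and a known PPAR target (chr6:5472691-5473093), stood at 14.1 and 17.7, and its closest knockout peak was 22809 bp away. A region inside Egfem1 (chr3:29206028-29206546) stood at 13.8 and 13.9. The highest ChIP fold enrichments were in Ski, a co-repressor of TGF-β signalling (chr4:155217261-155217714, 85.1 and 65.8), upstream of Chil3 (chr3:106172534-106172904, 55.2 and 59.0) and in Irf8, a myeloid transcription factor (chr8:120741006-120741331, 53.1 and 47.7). At the Chil3 region the ATAC and ChIP summits lay at the same base.

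Around Pparg (chromosome 6, 115360879 to 115490404), the gene in the title of the series, no bound region was lost. Within 50 kb of it 28 regions were open in both controls and 10 of them were bound. Of the 10, 9 had a peak in all 5 lists, among them the region at chr6:115421654-115422214 (folds 10.1 and 8.02), which overlaps a listed promoter window, and the region at chr6:115511340-115512102 had one in 2 of 3 knockout lists. The 1 lost region there, chr6:115313214-115313492, had no ChIP peak. No RNA of the cultures was available, so Pparg RNA can be given for uncultured cells of other mice only. There it was 139, 201 and 231 CPM in Cebpb +/+ and 12.7, 20.9 and 23.9 CPM in Cebpb -/- adults, with no overlap (log2 fold change −3.31, SE 0.28, adjusted p 3.27e-05). It also fell in E18 cells (−4.50), and with LyzMCre it did not pass (−1.16, adjusted p 0.0943, edgeR). Within 50 kb of Cebpb 14 regions were open in both controls and 7 were bound. One of these was lost, chr2:167713345-167713820, which lies 22913 bp beyond the gene and had ATAC folds of 4.71 and 3.24 and ChIP folds of 7.81 and 9.87.

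Each region was linked to the nearest gene body within 50 kb among genes of the count tables, so a nearer gene outside them was passed over. This placed 981 of the 1120 regions at 850 genes, 646 of them inside the gene. With the nearest of all RefSeq genes taken instead, 721 genes of the count tables were linked. Nearness does not show which gene a region acts on. Of the 850 genes, 734 had 1 bound, lost region, 97 had 2 and 19 had 3 or more. For 671 genes (78.9%) a bound region open in all lists was linked as well, with a median of 2. RNA did not enter the rule, so it could be tested. In sorted cells, fewer cells of a type and less RNA per cell cannot be told apart.

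In adult Cebpb -/- macrophages, 205 of the 685 linked genes that passed the filter on low counts fell (29.9%) and 102 rose (14.9%), at an adjusted p under 0.05 over all genes. The background was 12.6% lower and 14.6% higher among all 10262 genes tested. The share of linked genes that fell was thus above the background, and the share that rose was close to it. Among genes linked to bound, open regions only, 14.7% fell and 15.6% rose, and among genes linked to lost regions with no ChIP peak 14.5% fell and 16.5% rose. The median log2 fold change was −0.25 for linked genes and 0.02 for all genes. The share that fell was 28.7% (166 of 578) with 1 region, 35.2% (31 of 88) with 2 and 42.1% (8 of 19) with 3 or more. It also rose at each step with CD11cCre, with LyzMCre and in Lip Lip/Lip. From 2 to 3 or more regions it did not rise in the other comparisons. There it was 23.7 and 23.5% in CD11b low cells, 25.3 and 23.5% in E18 cells, and 33.7 and 22.2% in the chimeras. The class with 3 or more regions held only 17 to 19 tested genes. In adult Cebpb -/- cells the share that fell was 30.5% with a region inside the gene and 28.5% with regions outside only. For genes with no bound, open region beside the lost one, 20.0% fell (21 of 105) and 21.9% rose (23). No share was tested against another, because the genes were chosen with results of these data known.

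**Figure D3:**
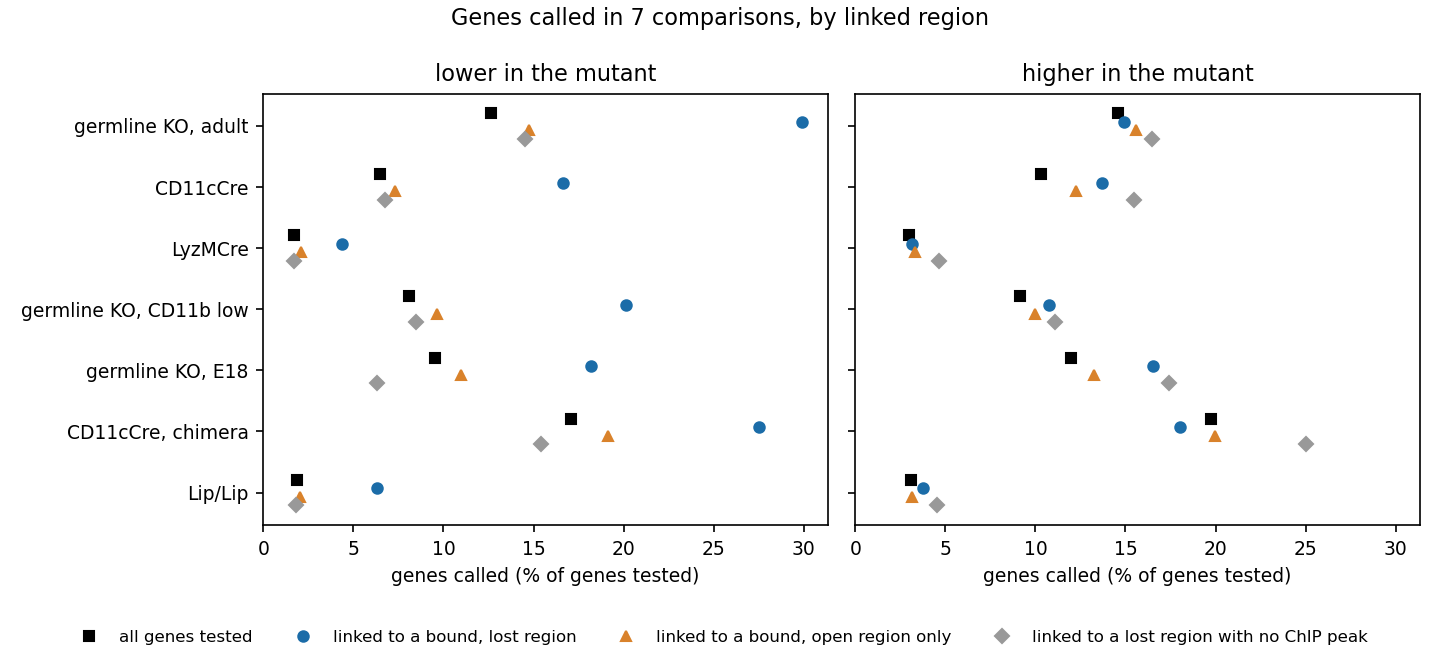
Share of tested genes called lower (left) or higher (right) in the mutant (x axes, percent; adjusted p under 0.05, edgeR) in 7 comparisons (y axis), for all genes tested, genes linked to a bound, lost region, genes linked to a bound, open region only, and genes linked to a lost region with no ChIP peak. Genes linked to bound, lost regions stand to the right of the other groups on the lower side in every comparison shown, at 29.9% against 12.6% of all genes in adult Cebpb -/- macrophages.

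In the other comparisons, made on other libraries, the share of linked genes that fell was again above that of all genes. The order of the remaining groups varied: for genes linked to lost regions with no ChIP peak, 6.32% fell at E18 and 15.4% in the chimeras, below all genes. With CD11cCre 112 of 673 linked genes fell (16.6%, background 6.48%) and 92 rose (13.7%, background 10.3%). In CD11b low Cebpb -/- cells 116 of 576 fell (20.1%, background 8.08%) and 62 rose (10.8%, background 9.16%). In E18 Cebpb -/- cells 120 of 660 fell (18.2%, background 9.55%) and 109 rose (16.5%, background 12%). In the chimeras 188 of 683 fell (27.5%, background 17.1%) and 123 rose (18%, background 19.8%). With LyzMCre, 2 against 2 libraries, 28 of 638 fell (4.39%, background 1.72%) and 20 rose (3.13%, background 2.96%). In Lip Lip/Lip macrophages 42 of 665 fell (6.32%, background 1.84%) and 25 rose (3.76%, background 3.1%). The LyzMCre counts moved most with single libraries: 129 genes fell and 107 rose without mutant replicate 1, and 146 and 100 without mutant replicate 2. Each of these fits has 1 mutant library, which is assumed to vary as the controls do.

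The effect of Cebpb -/- was compared with that of Lip Lip/Lip in 1 fit over 14 libraries. It was lower (more negative) for 66 of 700 linked genes (9.43%, background 3.78%) and higher for 24 (3.43%, background 2.9%).

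Over the 6 Cebpb deletions together, 561 linked genes could be tested in every one, and 32 of them (5.70%) fell in at least 5, against 1.67% of all 7479 genes tested in every one. All 6 deletions lowered 10 linked genes (1.78%, against 0.602% of all genes and 0.777% of genes linked to bound, open regions only): Cebpb, Ear1, Gsap, Il18, Mcemp1, Net1, Pnpla8, Prkar2b, Wfdc21 and Wwtr1. Cebpb is the deleted gene, so its fall was set by the design. All 6 raised 5 linked genes (0.891%, against 0.989% of all genes).

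Of the 8 linked genes named for the largest falls, Chil3 and Ear1 are in the list of alveolar macrophage identity. Chil3, which encodes a secreted chitinase-like protein abundant in the air spaces, had 3 bound, lost regions 2382 to 4970 bp from the gene on chromosome 3 (106169946 to 106170282, 106170362 to 106171032 and 106172534 to 106172904). Its RNA was 3838, 4065 and 4513 CPM in Cebpb +/+ adults and 11.3, 8.71 and 165 CPM in Cebpb -/-. All 3 mutants were far below the controls, and mutant replicate 3 was above the other two (log2 fold change −6.06, SE 1.37, adjusted p 0.0251). Without mutant replicate 2 the adjusted p was 0.0502. With CD11cCre Chil3 fell from 31654, 31394 and 34649 CPM to 8132, 6456, 11230 and 5871 (−2.04, SE 0.19), and in E18 cells from 279, 498 and 499 CPM to 5.28, 9.16, 5.67 and 14.9 (−5.58, SE 0.36). The chimeras held 10826, 22871, 16848 and 17700 CPM in wild-type cells and 702, 150 and 819 in Cebpb-deleted ones (−4.94, SE 0.58). In CD11b low cells the fall of 2.86 on the log2 scale missed the threshold (adjusted p 0.0602), and without mutant replicate 2, which held 1327 CPM against 157 to 207 in the others, it was −4.21 (adjusted p 6.74e-11).

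Marco, a scavenger receptor for inhaled particles and bacteria, had 1 region in the gene (chr1:120498091-120498425) and 2 at 14446 and 17422 bp from it. Its RNA was 756, 1136 and 1132 CPM in Cebpb +/+ and 0.418, 0 and 46.5 CPM in Cebpb -/- adults. The groups did not overlap, but mutant replicate 3 stood apart, and the adjusted p was 0.0503 (log2 fold change −5.98, SE 1.68). Without that library it was 8.93e-08, with a log2 fold change of −11.9. Marco fell with CD11cCre (−3.45, SE 0.56), with LyzMCre (−6.06, SE 0.45), in CD11b low cells (−5.46, SE 1.06), in E18 cells (−6.46, SE 0.88) and in Lip Lip/Lip (−3.92, SE 0.33). The CD11b low call was lost without mutant replicate 1 (adjusted p 0.0511). In the chimeras it was already low in wild-type cells, at 4.64, 2.10, 14.9 and 6.75 CPM against 0, 4.81 and 3.27, and did not pass the test (−1.33).

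Mutant replicate 3 of the adult Cebpb -/- group also had the highest Cebpb level of that group. Leaving it out gave 267 lower and 115 higher linked genes of 690, of which 203 and 97 were among those called with it. Summed over the 10 alveolar macrophage markers, the adult libraries held 10354 to 12315 CPM in +/+ and 696 to 1142 in -/-. Erythroid markers summed to 75.4 to 85.3 CPM in +/+ and 279 to 672 in -/-, neutrophil markers to 37.2 to 44.2 and 66.1 to 141, T cell markers to at most 0.368 and to 1.45 to 6.89, epithelial markers to 23.1 to 69.4 and 6.89 to 13.4, and dendritic cell markers to at most 0.461 and to 0.581 to 4.31. Mast cell and basophil markers reached at most 0.215 CPM, and endothelial and stromal markers 0.418 to 2.39 in both groups. In the other comparisons neutrophil markers summed to 31.2 to 39.1 CPM in controls and 287 to 327 in mutants with CD11cCre, to 21.9 to 26.8 and 113 to 203 with LyzMCre, and to 19.1 to 49.2 and 100.3 to 243.6 in CD11b low cells. At E18 neutrophil markers summed to 104 to 257 and 1.93 to 19.7, and epithelial markers to 25.8 to 31.0 and 109.5 to 222.6. Ly6g, 1 of the 3 neutrophil markers, had 0 counts in all libraries with LyzMCre, in CD11b low cells and at E18. The neutrophil sums there come from S100a8 and Cxcr2 only. In the chimeras dendritic cell markers summed to 2.09 to 7.34 and 10.8 to 104 and epithelial markers to 81.2 to 131 and 36.8 to 1270, and in the Lip Lip/Lip comparison epithelial markers to 80.9 to 92.8 and 133.5 to 316.4. The part of these cells in the counts of linked genes was not tested. Of 17 markers of monocytes and tissue macrophages, none was linked to a bound, lost region. Among all 22050 genes with counts 850 were linked, so the absence of a link in so short a list says little about these markers. In adult Cebpb -/- cells 13 of the 16 markers tested rose (background 14.6%).

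The eosinophil-associated ribonuclease gene Ear1 had a region 645 bp away (chr14:43817745-43818120). It was 579, 589 and 728 CPM in +/+ and 3.13, 6.10 and 22.2 CPM in -/- adults (−5.90, SE 0.69, adjusted p 0.000918), and it fell in the other 5 deletions and in Lip Lip/Lip (−3.64, SE 0.29). Ear6, whose promoter region chr14:51853516-51853846 contains the whole window printed above, was 57.0, 41.2 and 68.4 CPM in +/+ and 0, 0 and 2.58 CPM in -/- adults (−5.87, SE 0.73, adjusted p 0.000758). In Lip Lip/Lip it went the other way, from 2.34, 2.6, 4.23 and 2.19 CPM to 26.1, 29.6, 43.4 and 30.1 (3.37, SE 0.35, adjusted p 9e-06), and the difference between the 2 effects was −9.21 (adjusted p 3.75e-07). Its controls therefore stood at 41.2 to 68.4 CPM in one experiment and at 2.19 to 4.23 in the other. Ear genes have near-identical copies, so their counts are uncertain.

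Mcemp1, a membrane protein of mast cells and macrophages, lost the peak over its own start (chr8:3665518-3665910, ATAC folds 6.04 and 5.43, ChIP folds 37.8 and 43.5). It was 554, 542 and 633 CPM in +/+ and 16.7, 17.1 and 51.9 CPM in -/- adults (−4.33, SE 0.46, adjusted p 0.000327). It also fell with CD11cCre (−2.58), with LyzMCre (−4.09), in CD11b low cells (−4.60), in E18 cells (−3.54), in the chimeras (−4.26) and in Lip Lip/Lip (−1.23). Il18, the cytokine interleukin 18, had a region inside the gene (chr9:50567465-50567830) and no bound, open region. It was 432, 429 and 526 CPM in +/+ and 40.5, 28.7 and 51.2 CPM in -/- adults (−3.52, SE 0.24, adjusted p 9.8e-06), and −0.28 in Lip Lip/Lip, where it did not pass; the 2 effects differed by −3.23 (adjusted p 1.62e-05). Wfdc21, a secreted whey acidic protein, had a region in the gene (chr11:83747806-83748313) and was 296, 279 and 600 CPM in +/+ and 3.13, 1.74 and 18.9 in -/- adults (−5.58, SE 0.89, adjusted p 0.00526).

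Of the 26 genes in the list of alveolar macrophage identity 7 were linked: Marco, Chil3, Ear1, Atp6v0d2, Bhlhe40, Olr1 and Kcnip4. In adult Cebpb -/- cells 5 of the 7 fell and 1 rose, and over the whole list 16 of 26 fell and 3 rose. Olr1, a receptor for oxidised LDL, was 158, 182 and 161 CPM in +/+ and 12.3, 17.1 and 18.3 in -/- (−3.39, SE 0.20, adjusted p 4.19e-06). Atp6v0d2, a subunit of the proton pump of lysosomes, was 994, 988 and 1296 CPM against 458, 467 and 466 (−1.24, SE 0.16, adjusted p 0.000474). The potassium channel partner Kcnip4, with 3 regions in the gene, was 9.23, 5.15 and 6.60 CPM against 0, 0 and 0.431 (−5.27, SE 0.73). The exception was Bhlhe40, a transcription factor needed for alveolar macrophage growth, which rose from 84.7, 85.2 and 60.4 CPM to 132, 126 and 220 (1.06, SE 0.24, adjusted p 0.0103), and also in CD11cCre, CD11b low, E18, chimera and Lip Lip/Lip cells (0.71 to 2.16). These lists were drawn up with earlier results of these data known and are no independent evidence of direction.

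**Figure D4:**
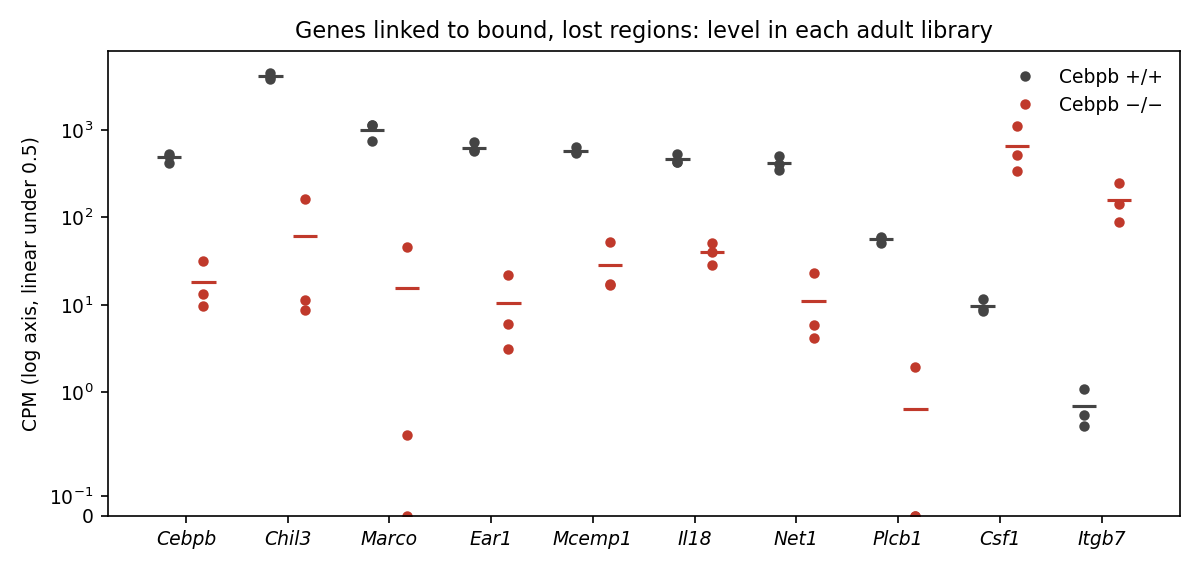
Level (CPM, log axis, linear under 0.5) of 10 linked genes in each Cebpb +/+ and Cebpb -/- adult library; points are libraries and lines are means (n = 3 each). The groups do not overlap for any of the 10 genes; Chil3 lies at 3838 to 4513 CPM in +/+ and at 8.71 to 165 in -/-, and Csf1 and Itgb7 lie higher in -/-.

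Of the genes with the largest falls or with falls in at least 5 deletions, Plcb1, a phospholipase that produces inositol trisphosphate, had 3 regions (2 in the gene) and was 60.2, 58.7 and 51.4 CPM in +/+ and 0, 0 and 1.94 CPM in -/- adults (−6.30, SE 0.62, adjusted p 0.000159). Net1, an exchange factor for RhoA, had a pair of neighbouring regions in the gene (chr13:3895638-3895982 and chr13:3896050-3896325) and no bound, open region. It was 350, 414 and 506 CPM against 4.18, 5.81 and 23.2 (−5.23, SE 0.64, adjusted p 0.0011). Prkar2b, a regulatory subunit of protein kinase A, was 161, 172 and 156 CPM against 5.85, 10.2 and 8.61 (−4.32, SE 0.22, adjusted p 2.46e-06). Patj, a scaffold of cell polarity, was 118, 97.0 and 88.4 CPM against 0.627, 3.19 and 1.51 (−5.90, SE 0.37), and the co-activator Wwtr1 (TAZ) 60.0, 47.5 and 44.0 CPM against 0.209, 0 and 2.37 (−5.73, SE 0.59). The potassium channel gene Kcnj15 was 62.5, 51.5 and 47.2 CPM against 0, 0 and 2.37 (−5.94, SE 0.68), and Cpne5, a calcium-dependent membrane binding protein, 71.5, 56.1 and 42.9 against 1.25, 2.03 and 0.215 (−5.66, SE 0.44). Where mutant libraries hold 0 counts the fitted fold change depends on the small count that edgeR adds.

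Ffar2, a receptor for short-chain fatty acids, did not move the same way in every comparison. A region lay 346 bp from it (chr7:30824121-30824367). In adults it fell from 33.2, 48.8 and 44.2 CPM to 0.418, 0 and 1.94 in Cebpb -/- (−5.59, SE 0.52), and it fell with CD11cCre (−3.42), with LyzMCre (−4.86), in CD11b low cells (−4.43) and in the chimeras (−5.32). In E18 cells it rose from 37.3, 35.0 and 46.1 CPM to 133, 107, 65.0 and 82.8 (1.30, SE 0.26, adjusted p 0.00208). In Lip Lip/Lip it rose from 117, 112, 110 and 116 CPM to 318, 264, 210 and 205 (1.13, SE 0.21, adjusted p 0.00268), and the difference from the Cebpb -/- effect was −6.72 (adjusted p 3.68e-07). The difference between the adult and the E18 effect was not tested.

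**Figure D5:**
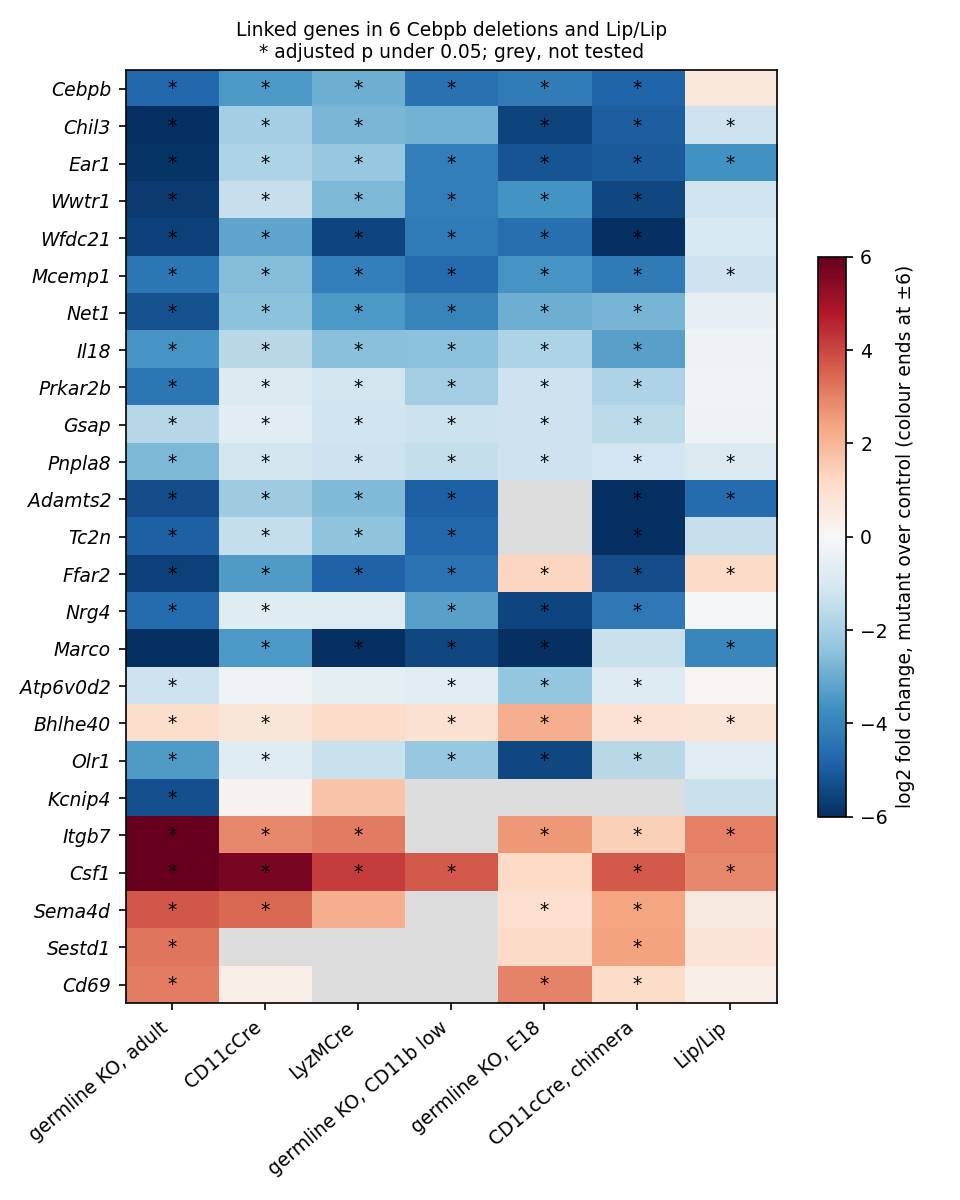
Log2 fold change, mutant over control (colour, which ends at ±6), of linked genes (rows) in the 6 Cebpb deletions and Lip Lip/Lip (columns); an asterisk marks an adjusted p under 0.05 (edgeR) and grey a gene not tested. Mcemp1, Ear1, Il18 and Net1 are lower in all 6 deletions, Ffar2 is higher in E18 cells and in Lip Lip/Lip, and Csf1 is higher in every adult comparison shown.

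Of 24 genes for lipid uptake, storage and PPAR targets 4 were linked, and 1 of the 4 fell in adult Cebpb -/- cells, while over the whole list 11 of 22 tested fell and 1 rose. That gene was Cd36, a receptor for fatty acids and oxidised lipoproteins, at 215, 213 and 227 CPM in +/+ and 15.5, 27.6 and 37.5 in -/- (−3.02, SE 0.28, adjusted p 6.39e-05). In the chimeras Cd36 rose instead, from 26.3, 19.6, 16.3 and 11.9 CPM to 37.4, 59.6 and 73.4 (1.6, SE 0.28). Plin2, a coat protein of lipid droplets, was 953, 1007 and 986 CPM against 763, 920 and 623 (−0.35, adjusted p 0.168), and the monoacylglycerol lipase Mgll 463, 489 and 411 against 237, 394 and 131 (−0.84, adjusted p 0.104). Both fell in E18 cells, Plin2 by 2.46 and Mgll by 4.53 on the log2 scale. Pdk4, beside one of the strongest lost regions, was 6.00, 5.52 and 5.32 CPM against 1.46, 6.68 and 1.29 (adjusted p 0.276) and rose with CD11cCre from 2.95, 3.48 and 2.80 CPM to 20.1, 36.0, 20.4 and 28.4 (3.07, SE 0.27).

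Of 12 genes of cholesterol efflux, Abca1 and Npc1 were linked. Abca1, the pump that exports cholesterol, had 2 lost regions inside the gene and was 24.0, 20.2 and 24.8 CPM in +/+ and 80.4, 13.1 and 56.6 in -/- adults, which overlapped (1.13, adjusted p 0.188). It rose with CD11cCre (1.6, SE 0.18), with LyzMCre (3.21, SE 0.35), in CD11b low cells (2.42, SE 0.27), in E18 cells (1.71, SE 0.44) and in the chimeras (2.79, SE 0.36). Npc1, which moves cholesterol out of lysosomes, did not pass in adult Cebpb -/- cells (0.30, adjusted p 0.198). Pnpla8, a phospholipase, fell from 139, 140 and 143 CPM to 16.7, 17.4 and 29.9 (−2.71, SE 0.23, adjusted p 3.58e-05).

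Lysosomal genes went both ways. Of 18 in the list 7 were linked, of which 2 fell and 3 rose in adult Cebpb -/- cells, against 5 and 7 of 18 over the whole list. The proteases Ctsb (1182, 1187 and 964 CPM against 2604, 2018 and 5006; 1.53, SE 0.31, adjusted p 0.00631) and Ctsd (12242, 11096 and 7551 CPM against 16040, 14361 and 16126; 0.59, SE 0.19, adjusted p 0.0416) rose. The membrane protein Lamp1 rose from 945, 925 and 844 CPM to 1435, 1660 and 1601 (0.79, SE 0.15, adjusted p 0.00303). Tfec, a transcription factor of the MiT family, fell from 52.6, 57.4 and 83.1 CPM to 24.0, 15.7 and 25.2 (−1.57, SE 0.24, adjusted p 0.00124). In E18 cells Ctsd and Lamp1 fell, by 1.59 and 1.08 on the log2 scale.

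Among 20 genes of C/EBP, PU.1, AP-1 and partner factors 6 were linked: Cebpb, Spi1, Fosl2, Irf8, Runx1 and Runx2. Fosl2, a subunit of AP-1, fell from 54.0, 45.8 and 43.1 CPM to 23.0, 17.7 and 23.2 in adult Cebpb -/- cells (−1.15, SE 0.19, adjusted p 0.00156), and Runx2 from 35.5, 45.5 and 26.4 CPM to 14, 22.4 and 9.04 (−1.26, SE 0.33, adjusted p 0.0181). Spi1, which encodes PU.1, was 731, 708 and 725 CPM against 838, 647 and 586 (−0.06, adjusted p 0.823), and Irf8, beside one of the highest ChIP peaks, 205, 169 and 154 CPM against 145, 182 and 189 (−0.03, adjusted p 0.91). Both sets of libraries overlapped. Runx1, with 3 regions in the gene, was 333, 346 and 338 CPM against 229, 266 and 113 (−0.75, adjusted p 0.0748), and it rose in E18 cells (1.16, SE 0.22). Over the whole list 4 of 19 tested fell and 5 rose. Of the 14 genes of the GM-CSF receptor pathway the receptor chain Csf2rb alone was linked, and it fell from 1105, 1165 and 1495 CPM to 835, 906 and 836 (−0.55, SE 0.16, adjusted p 0.0344), while 3 of 14 fell and 6 rose over the list.

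Of 18 inflammatory genes Nlrp3, the sensor of the inflammasome, and Clec4d, a receptor for mycobacterial glycolipid, were linked. Nlrp3, with 2 regions, was 17.3, 34.8 and 30.3 CPM in +/+ and 71.4, 31.4 and 293 in -/- adults and did not pass (2.26, adjusted p 0.113). In CD11b low cells it fell from 46.3, 43.4, 49.9 and 51.9 CPM to 16.3, 18.2, 23.3 and 24.6 (−1.22, SE 0.24, adjusted p 0.0011). Clec4d, which lost a promoter peak, was 76.6, 82.5 and 134 CPM against 91.1, 105 and 106 in adults (adjusted p 0.915). It fell with LyzMCre (−1.71) and in E18 cells (−2.27) and rose in the chimeras (1.09).

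Some genes linked to bound, lost regions were higher in the mutants. Itgb7, an integrin chain of lymphocytes and other leukocytes, had a region in the gene (chr15:102232732-102233264) and rose from 0.461, 0.552 and 1.1 CPM to 89.2, 249 and 141 in Cebpb -/- adults (7.74, SE 0.54, adjusted p 2.09e-05). Csf1, the growth factor of macrophages, with a region 24835 bp away, rose from 8.54, 11.8 and 8.99 CPM to 514, 341 and 1114 (6.06, SE 0.50, adjusted p 8.1e-05). It also rose with CD11cCre (5.72), with LyzMCre (4.19), in CD11b low cells (3.70), in the chimeras (3.66) and in Lip Lip/Lip (2.90). The semaphorin gene Sema4d went from 1.62, 3.87 and 1.65 CPM to 19.6, 29.3 and 47.1 (3.72, SE 0.44), and Sestd1, a spectrin-repeat protein, from 1.62, 2.58 and 3.67 to 18.4, 19.2 and 37.2 (3.22, SE 0.39). Cd69, an early activation marker of lymphocytes, rose from 9.69, 9.39 and 12.1 CPM to 45.3, 27.3 and 190 (3.08, SE 0.77, adjusted p 0.0292). That call was lost without any 1 of the 3 control libraries (adjusted p 0.0678 to 0.122) and without the filter on low counts (0.101). Cd69, Itgb7 and Sema4d are also expressed by T cells, whose markers summed to 1.45 to 6.89 CPM in these mutants, and their part in the rise was not tested.

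The genes with most regions were Cd9, Itpr1 and Zfp608, with 4 each. Cd9, a tetraspanin of the cell surface, fell from 1771, 1450 and 1278 CPM to 923, 689 and 787 in adult Cebpb -/- cells (−0.91, SE 0.18, adjusted p 0.00495) and in E18 cells (−1.78, SE 0.23). Zfp608 fell from 40.6, 42.3 and 23.9 CPM to 17.8, 20.9 and 9.26 (−1.16, SE 0.32, adjusted p 0.0249). Itpr1, the receptor for inositol trisphosphate, was 16.2, 12.7 and 10.8 CPM against 13.8, 12.2 and 19.2 (0.20, adjusted p 0.617) and rose with CD11cCre (1.15, SE 0.24) and in E18 cells (1.24, SE 0.30). Of genes with 3 regions, the amyloid precursor App fell (−0.90, SE 0.18, adjusted p 0.0051), and Arid2, Asap1 and Ccr1 did not pass.

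Regions on promoter windows were linked to genes of both directions, and the window is not always that of the linked gene. Of the 24 genes linked to the 23 lost promoter regions 22 were tested in adults, of which 6 fell (background 12.6%), among them Cd9, Cpne5, Ear6, Kcnj15 and Mcemp1, and 7 rose (background 14.6%): Arap1, Csf3r, Ctsz, Fam63a, Itga5, Nfkbid and Orm1, which are named here after their values were seen. The lost region lay on the gene's own listed window for Cpne5, Ear6, Mcemp1, Ctsz, Itga5 and Nfkbid, and on the window of another gene for Cd9, Kcnj15, Arap1, Csf3r, Fam63a and Orm1. The protease gene Ctsz rose by 1.27 on the log2 scale in adult Cebpb -/- cells (adjusted p 0.000177) and by 0.77, 1.38 and 0.94 with CD11cCre, in CD11b low cells and in the chimeras. Akap7, whose window holds the C/EBP match printed above, did not pass in any of the 7 comparisons (0.48 in adults, adjusted p 0.240). Of the genes named above for their strong regions, Ski, Irf8, Zfp953 and Pdk4 did not pass in adult Cebpb -/- cells, while Chil3 (−6.06, adjusted p 0.0251) and Egfem1 (−5.58, adjusted p 0.000231) fell.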

How the data were processed

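Members, gene lists and link rule were chosen with earlier results of these data known. Per the submitters' processing notes, the tools included STAR 2.6.1a, featureCounts 1.6.3, BWA 0.7.17, Bowtie2, MACS2 2.2.7.1, Trim Galore, deepTools, DiffBind 2.14, ChIPseeker 1.22.1 and DESeq2 1.26, with builds GRCm38 and mm10, with no record of which tool made which file. The series has 122 samples in 39 groups, of which the ones described above were used.

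The authors deposited 1 peak list per ATAC or ChIP sample, with for each peak a fold enrichment over local background, −log10 p and −log10 q values, and a score that is 10 times the −log10 q. The lists keep peaks above the authors' cut, the lowest −log10 q being 1.34 to 1.42 for ATAC and 5.00 and 5.02 for ChIP, so a peak near the cut can be present in one list and absent from another. The authors deposited gene counts for RNA, and the labels do not say if reads with the same molecule barcode were counted once. Nothing in the labels says that all replicates came from separate animals, so p-values measure the spread between these samples. No column of per-sample values was left without a sample.

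Peaks were merged at 1 bp of overlap in Python 3.11.15 (pandas 2.3.3, numpy 2.4.6, scipy 1.17.1), checked with bedtools 2.31.1. Regions were linked to the nearest gene body within 50 kb among RefSeq GRCm38.p6 genes that matched a count-table gene. Of 22050 count-table genes 20574 matched by symbol, 770 by synonym and 706 not at all. Motifs were searched in RefSeq promoter windows only: a search around the summits of other regions was planned but no genome of the build was used here. Counts were tested with edgeR 4.0.16 (R 4.3.3, limma 3.58.1; TMM, filterByExpr with a minimum count of 10, quasi-likelihood test, Benjamini-Hochberg adjustment over all genes, threshold 0.05), each comparison on its own libraries, and in 1 fit of 14 libraries for the difference between the Cebpb -/- and Lip Lip/Lip effects. Counts were also simulated from the mean levels of the adult Cebpb +/+ libraries. Every gene had a dispersion of 0.05, and only genes with an expected count above 20 were changed. There, 50 of 50 genes were recovered at each of log2 −2 and 2, 27 of 50 at −1 and 19 of 50 at 1, and 7 of 9709 unchanged genes were called. In the real mutant libraries some genes, such as Chil3, spread widely, so these rates need not hold for them. In the chimeras, same-numbered samples deviated together (r 0.125, 0.128 and 0.128 across genes), so the numbers may pair them. Differently numbered samples reached 0.340 in the Lip Lip/Lip comparison, so r of this size does not settle it. The chimera values above come from the fit without pairs, and with the pair as a block 188 linked genes fell and 102 rose. Alternatives were DESeq2 1.42.0, DESeq2 size factors, no filter, a replicate block, link distances of 10 and 100 kb, a link to the nearest of all RefSeq genes, stricter peaks, and leaving out each library. Named were Cebpb and Pparg, the 8 largest falls and 5 largest rises among linked genes called in adult Cebpb -/- cells (at least 20 CPM in a group, no overlap), up to 15 genes lower in at least 5 deletions, linked list members, genes with the most regions, and the 10 regions with the highest ATAC or ChIP fold. Predicted genes and 1 X-linked gene are not described. The RNA levels of 1 marker list are not reported here. ChIP inputs and ATAC samples of uncultured cells were not analysed here.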

Additional observations from a re-analysis of the deposited data

Results flagged for a closer look

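In groups of 4 libraries, 23 of 378 (6.08%) had a highest or lowest library whose gap to the rest passed Dixon's 95% limit, which chance gives for about 1 group in 20. Values are CPM, with the range of the other libraries of the group after each. With CD11cCre Wwtr1 was 2.98 in mutant replicate 2 against 17.7 to 19.6 and Wfdc21 was 144 in mutant replicate 3 against 24.6 to 41.8. There, Atp6v0d2 was 947 in mutant replicate 4 against 1264 to 1278 and Fosl2 was 38.5 in mutant replicate 1 against 27.5 to 28.9. There, Itpr1 was 18.9 in mutant replicate 2 against 14.1 to 14.9. In CD11b low cells Chil3 was 1327 in mutant replicate 2 against 157 to 207 and Kcnj15 was 0.582 in mutant replicate 3 against 0. There, Wfdc21 was 80.2 in mutant replicate 2 against 5.24 to 6.47 and Adamts2 was 24.5 in control replicate 1 against 14.3 to 15.4. There, Adamts2 was 2.59 in mutant replicate 4 against 0 and Marco was 91.1 in mutant replicate 2 against 1.75 to 12. There, Runx2 was 33.6 in control replicate 2 against 46.3 to 47.1. In the chimeras Plcb1 was 6.75 in control replicate 4 against 8.17 to 8.42 and Prkar2b was 44.5 in control replicate 1 against 38.2 to 39.1. There, Plin2 was 795 in control replicate 3 against 846 to 854 and Lamp1 was 1856 in control replicate 1 against 1431 to 1497. There, Cd9 was 3177 in control replicate 4 against 3629 to 3691. In the Lip Lip/Lip comparison Wfdc21 was 313 in mutant replicate 4 against 143 to 164 and Ctsb was 1902 in control replicate 3 against 1226 to 1340. There, Csf2rb was 892 in control replicate 2 against 772 to 791 and Fosl2 was 8.76 in mutant replicate 4 against 24.1 to 26.8. There, Runx2 was 28.1 in control replicate 1 against 36.9 to 38.5 and Asap1 was 102 in control replicate 2 against 132 to 137. 

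The effect of Cebpb -/- differed from that of Lip Lip/Lip for 25 of 58 named genes (adjusted p under 0.05 for the difference, edgeR), and for 22 of them it was the more negative. Over all genes the difference was lower for 3.78% and higher for 2.9%. Some of the named genes, the 8 largest falls among them, were chosen for their fall in these Cebpb -/- libraries, so neither the count nor its direction is independent of that choice. The differences, Cebpb -/- effect minus Lip Lip/Lip effect on the log2 scale, were Ear6 −9.21, Ffar2 −6.72, Cebpb −5.37, Chil3 −4.81, Net1 −4.74, Wfdc21 −4.67, Wwtr1 −4.51, Nrg4 −4.49 and Prkar2b −4.11. They were Kcnip4 −3.90, Tc2n −3.51, Patj −3.24, Il18 −3.23, Mcemp1 −3.08, Cpne5 −3.05, Olr1 −2.74 and Pparg −2.52 next, and Ear1 −2.24, Pnpla8 −1.83, Gsap −1.44, Atp6v0d2 −1.34 and Tfec −1.28 among the smaller ones. The effect was the more positive for Sema4d 3.23, Csf1 3.26 and Itgb7 4.80.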

How the results depend on the processing

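The share of bound regions that were lost, 7.07%, was 8.28% with ATAC peaks of −log10 q of at least 5, 6.36% with control peaks of at least 5 and 6.32% with both ChIP summits inside the region. Leaving out single libraries gave 1258 to 2162 regions and 6.88 to 12.0%, the upper ends without control replicate 1. For the genes linked to bound, lost regions, leave-one-out counts in adult Cebpb -/- cells were 146 to 267 lower and 65 to 115 higher (65 without control replicate 2), and with CD11cCre 75 to 152 and 61 to 119 (61 without control replicate 1). With LyzMCre they were 19 to 146 and 10 to 107, the upper ends without a mutant library and 10 without either control library. They were 88 to 115 and 46 to 62 in CD11b low cells, 89 to 115 and 76 to 116 at E18, and 166 to 225 and 101 to 148 in the chimeras. In Lip Lip/Lip they were 24 to 48 and 14 to 25, with 26, 24 and 25 lower without control replicate 1, control replicate 2 and mutant replicate 1, and 16 and 14 higher without control replicate 2 and mutant replicate 1. Without a filter on low counts LyzMCre gave 50 lower and 40 higher. Outside the chimeras, too, samples shared only a replicate number. With a replicate block the counts there were 206 and 102 in adult Cebpb -/- cells, 152 and 127 with CD11cCre, 36 and 26 with LyzMCre, 93 and 57 in CD11b low cells, 114 and 88 at E18, and 37 and 20 in Lip Lip/Lip. The crossed pairing of LyzMCre, added after seeing the data because same-numbered samples correlated at −0.104, gave 48 and 39. Of all alternatives on summary values, 209 stayed within the margin and 26 moved. Of those on named genes 4825 kept the call, 154 lost it and 140 gained it. Spi1 with LyzMCre, not called at 0.79 (adjusted p 0.571), was −0.44 (adjusted p 0.0114) without mutant replicate 1 and 1.46 without mutant replicate 2, fits in which the single mutant library is assumed to vary as the controls do. The causes were not tested. Depth limits falls to about the level of 3 counts, 0.224 to 5.47 CPM.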

Other observations

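The genes linked to bound, lost regions that rose in all 6 Cebpb deletions were Arhgap22, Eps8, Etv3, Foxp1 and Zfhx3, which apart from Zfhx3 are named here after their values were seen. Foxp1, a forkhead repressor, had log2 fold changes of 0.70 in adult Cebpb -/- cells, 1.01 with CD11cCre, 1.64 with LyzMCre, 1.44 in CD11b low cells, 1.97 at E18 and 1.06 in the chimeras. Etv3, an ETS family repressor, was highest at E18 (4.45) and between 1.26 and 1.85 in the other 5. Arhgap22, a GTPase-activating protein for Rac, ranged from 1.23 to 3.55 and was −0.46 in Lip Lip/Lip, where it did not pass. The share of linked genes that rose in all 6, 0.891%, was close to the 0.989% of all genes.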
